A study of Mus musculus with 12 samples.

Results

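The genes described here are 10 cell adhesion molecules of the immunoglobulin superfamily: the 4 members of the L1 family (L1cam, Nrcam, Chl1 and Nfasc), Alcam, Mcam, Bcam, Ncam1, Cadm1 and Cadm3. They were taken by symbol from a table of 24421 genes, and were chosen with their levels by tumour line and by endothelial content in these same 12 libraries already known. Their differences between the tumour lines and their slopes on endothelial content are therefore given as descriptions, and nothing is read from whether they passed a threshold. All 10 symbols were found and 9 passed the filter on low counts, Cadm3 being the exception.

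The libraries hold mRNA bound to ribosomes in tumours grown under the skin, of B16F10, the highly metastatic mouse melanoma line (n = 7 libraries), and of B16F0, the poorly metastatic line (n = 5), taken at 12 days. All hosts were C57BL/6 mice of the genotype Rpl22fl/flHA;Cdh5(PAC)-CreERT2 and all received tamoxifen, which turns on an HA tag on the ribosomal protein Rpl22 in cells that use the Cdh5 promoter, chiefly endothelial cells. No untagged tissue is among the libraries used here. The labels do not say that replicates are separate animals, and p-values then cover only the spread between these libraries, which may in part be technical.

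Adhesion molecules of this superfamily carry extracellular immunoglobulin domains that bind the same molecule or a different one on a neighbouring cell. The L1 family is best known from axons, where its short cytoplasmic tails are held by ankyrins and the actin linker ezrin and its ectodomains are released by proteases such as Adam10. Several members are also made outside the nervous system, among them L1cam, Alcam and Mcam in melanoma cells and Mcam on the endothelium of vessels.

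The promoter windows of 4 members are shown because they form the pairs that moved together in the values below, L1cam with Alcam by tumour line and Mcam with Bcam by endothelial content. Each runs from 250 bases before to 50 bases after a gene start in RefSeq (build GRCm38.p6), 5′ to 3′ on the gene's strand. They lie at chrX:73880741-73881040 (minus strand, L1cam), chr16:52453032-52453331 (minus strand, Alcam), chr9:44134408-44134707 (plus strand, Mcam) and chr7:19770483-19770782 (minus strand, Bcam). Capitals mark the GC box GGGCGG or its reverse complement.
L1cam: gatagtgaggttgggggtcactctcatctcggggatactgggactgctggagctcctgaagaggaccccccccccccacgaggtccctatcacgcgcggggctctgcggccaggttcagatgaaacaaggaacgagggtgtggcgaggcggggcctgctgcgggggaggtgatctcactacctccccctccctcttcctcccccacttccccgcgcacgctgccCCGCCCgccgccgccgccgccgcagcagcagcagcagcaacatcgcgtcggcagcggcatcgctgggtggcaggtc
Alcam: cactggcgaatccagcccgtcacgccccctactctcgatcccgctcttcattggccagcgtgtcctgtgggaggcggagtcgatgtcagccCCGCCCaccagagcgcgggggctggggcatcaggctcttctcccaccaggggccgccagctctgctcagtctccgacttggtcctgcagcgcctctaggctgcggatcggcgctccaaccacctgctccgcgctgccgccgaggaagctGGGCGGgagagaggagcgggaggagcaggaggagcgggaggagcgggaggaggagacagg
Mcam: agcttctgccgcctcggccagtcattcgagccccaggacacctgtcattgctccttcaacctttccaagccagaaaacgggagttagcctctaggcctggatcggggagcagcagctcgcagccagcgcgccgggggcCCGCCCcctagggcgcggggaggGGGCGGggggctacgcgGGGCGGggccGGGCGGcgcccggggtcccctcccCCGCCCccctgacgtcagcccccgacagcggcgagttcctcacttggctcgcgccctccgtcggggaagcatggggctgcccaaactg
Bcam: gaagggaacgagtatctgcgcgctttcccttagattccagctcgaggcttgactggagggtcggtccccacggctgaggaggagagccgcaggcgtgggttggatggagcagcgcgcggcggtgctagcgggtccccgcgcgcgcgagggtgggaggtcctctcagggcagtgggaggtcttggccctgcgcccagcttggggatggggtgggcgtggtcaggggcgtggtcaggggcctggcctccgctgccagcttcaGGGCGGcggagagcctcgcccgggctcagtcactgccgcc
RefSeq windows were matched for 8 of the 10 members, 10 windows in all, since L1cam and Nfasc have more than 1. The GC box was found once in the L1cam window shown, 2 times in that of Alcam, 5 times in that of Mcam and once in that of Bcam, and 35.7% of all 32851 promoter windows hold at least 1. GC content was 69.3% for L1cam, 69.7% for Alcam, 72.7% for Mcam and 71% for Bcam, against a median of 52.7% over all windows. Windows of members outside these pairs ran from 52% in 1 of Nfasc to 74% in Nrcam, which holds 2 GC boxes. The E-boxes CACGTG and CATGTG, the ETS core CCGGAA and the TATA sequence TATAAA, each searched on both strands, were in none of the members' windows, and are in 7.15%, 14.2%, 14.9% and 13.6% of all windows.

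Library totals ran from 5322510 to 20569186 counts in B16F10 and from 10753106 to 17381336 in B16F0. The library names give 3 lane numbers, called lanes here. They name no flow cell, and libraries with the same number can differ in name prefix, so a shared number need not be the same sequencing run. The ribosomal repeat Rn45s took 31.4% of the counts in B16F10 replicate 5, 8.91% in B16F0 replicate 5 and 0.0218% to 1.75% in the others. All 20 endothelial markers were detected in every library, and so were all 20 pigment cell markers, whose summed level was 12432 to 25751 CPM in B16F10 and 15445 to 26316 CPM in B16F0, against 784 to 5343 CPM and 1089 to 5766 CPM for the endothelial list (CPM, a gene's share of the scaled library total). The precipitates were thus mixtures, and in such bulk libraries fewer cells of a type and less RNA per cell cannot be told apart. The endothelial score, the mean log2 CPM of the endothelial list, was 5.50 ± 1.02 in B16F10 and 5.55 ± 1.04 in B16F0 (SD, n = 7 and 5), with a two-sided p of 0.942 by exact permutation. It was highest in B16F10 replicates 4 and 5 and B16F0 replicate 3, where Cdh5, the endothelial cadherin, reached 711, 482 and 764 CPM, while the other 9 libraries held 78.6 to 206 CPM. B16F10 replicate 4 and B16F0 replicate 3 share a lane number and the prefix of their library names, whose meaning the labels do not state. The Y-linked gene Ddx3y ran from 0 to 29.2 CPM in B16F10 and from 0.0669 to 78.1 CPM in B16F0. Host sex was not a term in the model.

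Per kilobase of exon, the members spanned a wide range. Mcam had the highest mean, at 61.4 ± 35.3 CPM per kb (SD over 12 libraries), followed by Cadm1 at 38.1 ± 13.4 and Nrcam at 27.0 ± 6.17 CPM per kb. Alcam, Ncam1, L1cam and Bcam formed a middle group, at 3.95 ± 2.00, 3.72 ± 1.18, 1.93 ± 1.67 and 1.70 ± 1.22 CPM per kb. Chl1 at 0.202 ± 0.217, Nfasc at 0.0847 ± 0.0954 and Cadm3 at 0.0789 ± 0.0795 CPM per kb were the scarcest, with 293, 144 and 68 reads over all libraries. Mcam was above Cadm1 in 8 of 12 libraries and Cadm1 above Nrcam in 10, and the mean of Mcam was raised by the 3 libraries of highest endothelial score, described below, which averaged 386 CPM where the other 9 averaged 146 CPM. Neighbours in the middle group did not keep their order from library to library: Alcam was above Ncam1 in 4 of 12 libraries, Ncam1 above L1cam in 8, and L1cam above Bcam in 4. Nrcam was above Alcam, and Bcam above Chl1, in 12 of 12.

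**Figure D1:**
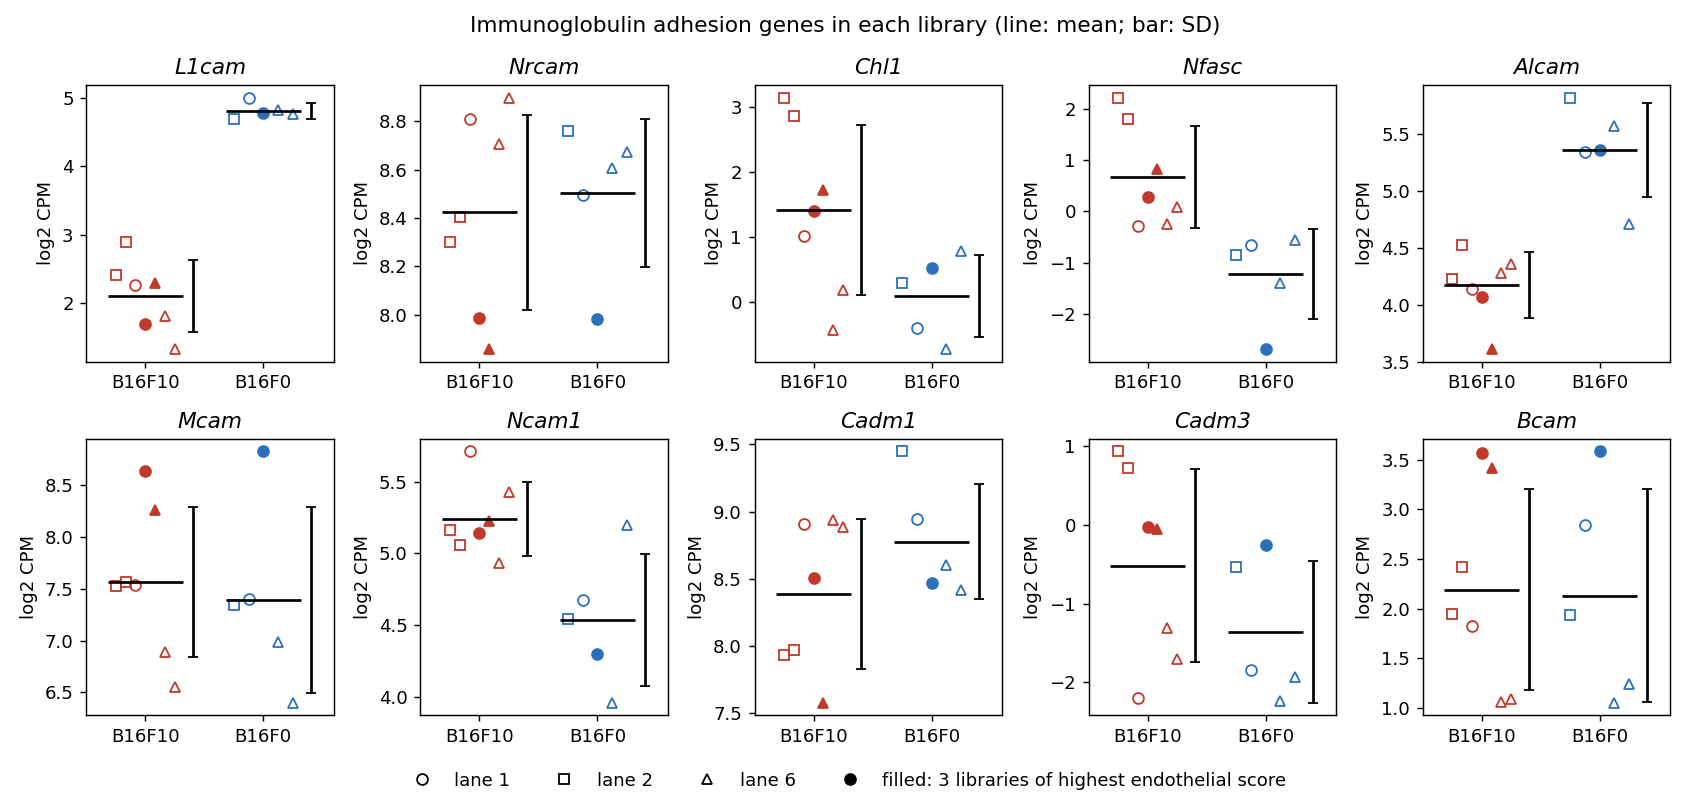
Level of each member in every library (log2 CPM, linear axis with its own range per panel), B16F10 on the left and B16F0 on the right, with symbols for the sequencing lane, lines for the mean and bars for the SD. L1cam and Alcam separate the lines completely, and the 3 filled libraries of highest endothelial score are the highest for Mcam and Bcam and the lowest for Nrcam.

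L1cam, the founding member of its family and a homophilic adhesion molecule of axons and of several tumours, was lower in B16F10. It stood at 2.35 to 7.30 CPM with a median of 4.66 CPM in the 7 B16F10 libraries, against 25.6, 31.9, 27.1, 28.0 and 26.8 CPM in the B16F0 libraries. All B16F10 libraries were below all B16F0 libraries, and the B16F0 values were close together. The log2 fold change, B16F10 over B16F0, was -2.75 ± 0.22 (SE), a 6.71-fold lower level, and it was -2.90, -2.03 and -2.97 within lanes 1, 2 and 6. The slope of its log2 CPM on the endothelial score was 0.02 ± 0.15 (SE). B16F0 replicate 3, one of the libraries richest in endothelial RNA, held 27.1 CPM, and the B16F10 libraries of that kind held 3.08 and 4.75 CPM. The gene lies at chrX:73853778-73896105 (minus strand, GRCm38), and 1.36% of its exon bases lie also in Arhgap4, a gene on the same strand.

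Alcam, a receptor that binds itself and the T cell molecule CD6, is encoded at chr16:52248996-52454074 (minus strand) and had the same direction with a smaller difference. It stood at 12.0 to 22.8 CPM with a median of 18.6 CPM in B16F10, against 56.3, 40.4, 40.8, 47.2 and 26.0 CPM in B16F0. The groups did not overlap, although B16F0 replicate 5 came within a few CPM of the highest B16F10 library. The log2 fold change was -1.23 ± 0.18, and -1.25, -1.44 and -1.05 within lanes 1, 2 and 6. Its slope on the endothelial score was -0.08 ± 0.12. Over the 12 libraries L1cam and Alcam correlated with r = 0.85, and with r = -0.39 once lane and line were taken out.

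These 2 were the only members called at a 0.05 false discovery rate by edgeR (quasi-likelihood fit, 13534 genes): 2 of 9 were lower and 0 were higher, where 1.47% of all genes tested were lower and 1.3% higher. All B16F10 libraries were below all B16F0 libraries for 2 of the 9, against 1.46% of genes, and above for 1, against 1.27%. As the members were chosen on this contrast, nothing is read from these shares. The median log2 fold change of the 9 was 0.30, and that of all genes tested 0.019.

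Within the L1 family, Nrcam made up nearly all of the transcript in both lines. Per kilobase, L1cam was 2.32% ± 1.04 of the family's summed level in B16F10 (0.885% to 3.66%) and 12.4% ± 2.65 in B16F0 (9.67% to 16.2%), while Nrcam was 96.0% ± 2.32 and 87.3% ± 2.68. Nrcam, which binds contactins and neurofascin, stood at 232 to 477 CPM with a median of 338 CPM in B16F10, against 433, 361, 253, 390 and 408 CPM in B16F0. The lines overlapped fully and the log2 fold change was -0.07 ± 0.21. It differed instead by endothelial content: the 3 libraries of highest endothelial score held 232 to 254 CPM and the other 9 held 316 to 477 CPM. The slope was -0.38 ± 0.09.

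Chl1, the close homologue of L1, and Nfasc, which organises nodes and axon initial segments, were the scarce members of the family. Chl1 stood at 0.592 to 8.66 CPM with a median of 2.49 CPM in B16F10, against 1.07, 0.605, 1.28, 0.451 and 1.57 CPM in B16F0. Its log2 fold change was 1.32 ± 0.55, and the groups overlapped. Nfasc stood at 0.666 to 4.49 CPM with a median of 1.07 CPM in B16F10, against 0.401, 0.484, 0, 0.226 and 0.524 CPM in B16F0. The 0 is B16F0 replicate 3, where a count of 0 allows up to 0.255 CPM by counting error (3 counts). All B16F10 libraries were above all B16F0 libraries for Nfasc, the log2 fold change was 1.99 ± 0.61, and edgeR did not call it while DESeq2 did. As Nfasc was chosen on this contrast, nothing is read from either outcome.

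The highest levels of both, and of Cadm3, were in B16F10 replicates 1 and 2, the B16F10 libraries of lane 2. The log2 difference of Chl1 was 1.15, 2.70 and 0.46 within lanes 1, 2 and 6, and that of Nfasc 1.67, 2.85 and 1.20. The same libraries had the most reads of olfactory, vomeronasal and taste receptor genes that report odour, pheromone and taste: 959 and 775 CPM summed over 1494 genes, where the other 10 libraries held 10.6 to 339 CPM. This sum averaged 355 ± 367 CPM in B16F10 and 56.6 ± 49.3 CPM in B16F0. The lines were compared on the log2 of the sum, not on these CPM means (by exact permutation, two-sided p = 0.0455). All r values with these reads, here and below, also use the log2 of the sum. They also had the highest mural scores, 4.29 and 4.43, in a list of pericyte and smooth muscle genes that averaged 3.17 ± 0.84 in B16F10 and 2.34 ± 0.34 in B16F0 (by exact permutation, two-sided p = 0.0619, adjusted over 8 scores 0.0990). Their fibroblast scores (5.16 and 5.50) and keratinocyte scores (0.90 and 0.54) were the highest too. Of the 10 keratinocyte genes only 3 passed the filter on low counts, and that score had r = 0.96 with the sensory receptor reads. Over the 12 libraries Chl1 had r = 0.92 with the mural, 0.84 with the fibroblast and 0.82 with the keratinocyte score. Nfasc had 0.74, 0.57 and 0.84 with these. With the scores of neuron and Schwann cell genes and with the sensory receptor reads, Chl1 had r = 0.80, 0.71 and 0.81. Nfasc had 0.64, 0.74 and 0.75. The part of these reads and cell types in the levels of Chl1, Nfasc and Cadm3 was not tested.

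**Figure D2:**
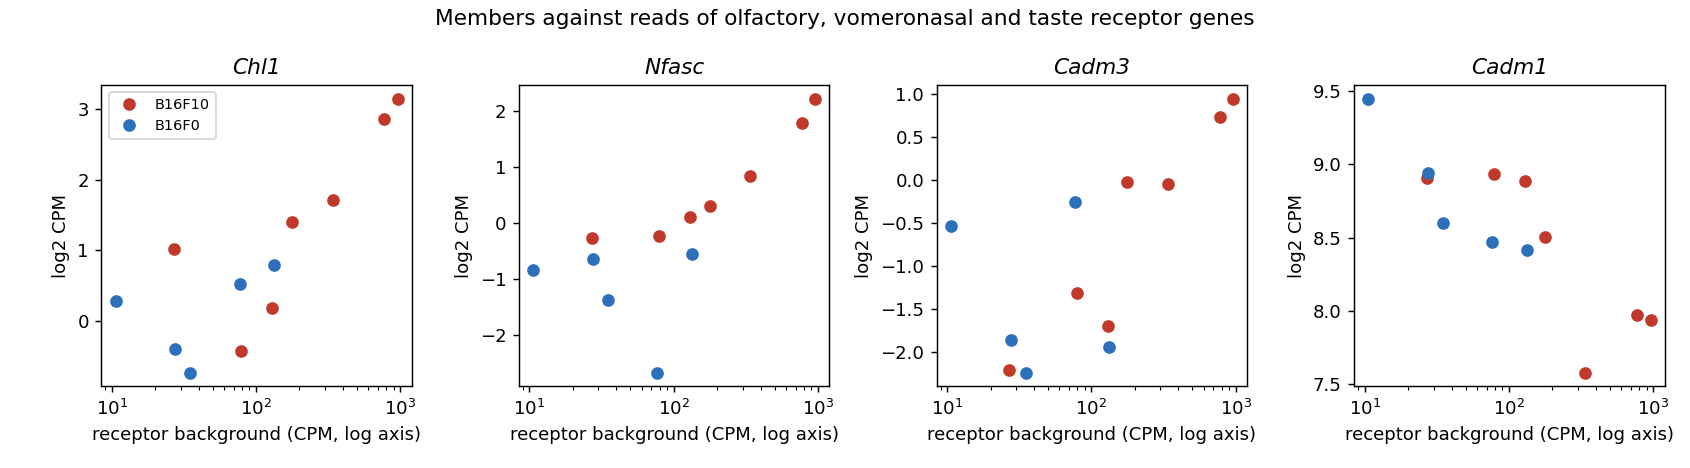
Log2 CPM of Chl1, Nfasc, Cadm3 and Cadm1 (linear axes with their own ranges) against the summed CPM of 1494 sensory receptor genes (log axis), 1 point per library. B16F10 replicates 1 and 2, at 959 and 775 CPM, are highest for Chl1, Nfasc and Cadm3 and among the lowest 3 for Cadm1.

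Mcam (CD146), an adhesion molecule of endothelial junctions, pericytes and melanoma cells that binds laminins, is encoded at chr9:44134469-44142727 (plus strand) and went with the endothelial score. It stood at 93.4 to 397 CPM with a median of 185 CPM in B16F10, against 163, 169, 455, 127 and 84.2 CPM in B16F0. The 3 libraries of highest endothelial score held 306 to 455 CPM and the other 9 held 84.2 to 189 CPM, without overlap. Its slope was 0.72 ± 0.07 log2 CPM per unit of score, while its log2 fold change between the lines was 0.30 ± 0.35.

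Bcam, the Lutheran glycoprotein and a receptor for the laminin chain Lama5, is encoded at chr7:19756131-19771016 (minus strand) and had the same pattern at a far lower level. It stood at 1.92 to 11.7 CPM with a median of 3.69 CPM in B16F10, against 3.68, 7.02, 11.9, 1.92 and 2.2 CPM in B16F0. The 3 libraries richest in endothelial RNA held 10.5 to 11.9 CPM and the other 9 held 1.92 to 7.02 CPM. Its slope was 0.85 ± 0.16 and its log2 fold change 0.40 ± 0.51. Mcam and Bcam correlated with r = 0.92 over the 12 libraries, and both ran against Nrcam, with r = -0.86 for Mcam and -0.87 for Bcam. Antisense genes share 0.507% of the exon bases of Mcam (Gm10687) and 1.63% of those of Bcam (Gm26600). The coefficients rest on 12 libraries that differ in depth and in endothelial content, and all genes of a library share both.

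Following the score means here, in limma, a slope of more than 0.5 at a 0.05 false discovery rate, which held for 2 of the 9 members and for 3.71% of all genes tested, and falling with it a slope under -0.5, which held for 0 of the 9 and for 0.177% of all. The score was among the values the members were chosen on, so this too is a description. Without the 3 libraries of highest score the slope of Mcam was 0.81 ± 0.29, close to its value with them. That of Bcam was -0.17 ± 0.61, with a wide SE, and no gene, these included, passed the threshold. Bcam also missed the threshold without any 1 of B16F10 replicate 3 (slope 0.76), B16F10 replicate 5 (0.60) and B16F0 replicate 3 (0.89), without the 2 libraries rich in Rn45s (0.62) and with Cdh5 alone as the score (0.65). The slopes on the score in the 2 lines were compared directly by an interaction term, and 0 of 13534 genes (0%) differed at an adjusted p under 0.05, with 265 at an unadjusted p under 0.05. In B16F0 the slope hung on replicate 3, with a score of 7.29 where the other B16F0 libraries held 4.50 to 5.46. The lack of calls therefore does not show that the slopes were alike.

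**Figure D3:**
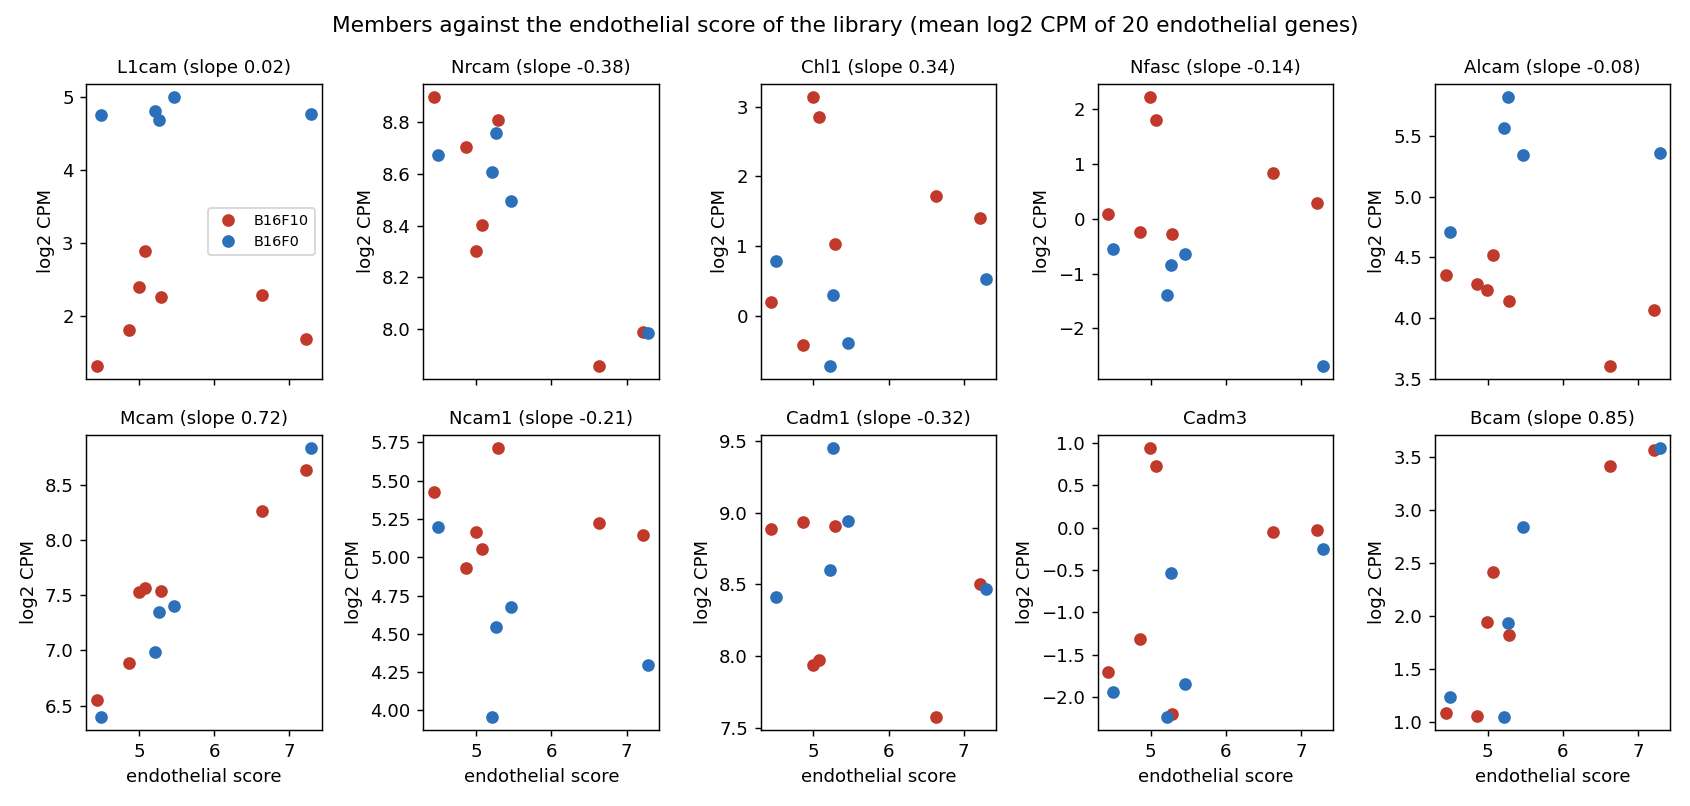
Log2 CPM of each member against the endothelial score of the library, with B16F10 libraries in red and B16F0 libraries in blue and the fitted slope in each title (none for Cadm3, which was not fitted). Mcam and Bcam are highest at high scores in both lines, Nrcam is lowest at high scores, and the lines stay apart for L1cam along the whole axis.

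Ncam1, the neural cell adhesion molecule that carries polysialic acid, was on the whole higher in B16F10, with overlap. It stood at 30.4 to 52.3 CPM with a median of 35.8 CPM in B16F10, against 23.1, 25.4, 19.5, 15.4 and 36.6 CPM in B16F0. B16F0 replicate 5 was the library that overlapped. The log2 fold change was 0.68 ± 0.21, and 0.94 without that library. Only the second passed the threshold, and as Ncam1 was chosen on this contrast, nothing is read from that. Of its exon bases 4.81% are shared with the antisense gene Gm11149, and the strand setting of the counting is not given in the sources used here.

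Cadm1, a nectin-like molecule that binds Crtam on lymphocytes, stood at 191 to 489 CPM with a median of 363 CPM in B16F10, against 699, 492, 355, 388 and 341 CPM in B16F0. Its log2 fold change was -0.35 ± 0.29, and the lanes differed: it was -1.49 in lane 2, where B16F0 has a single library, against -0.00079 and -0.04 in lanes 1 and 6. Lane 2 holds the B16F10 libraries richest in sensory receptor reads, and over the 12 libraries the log2 level of Cadm1 had r = -0.86 with that background. Cadm3, a nectin-like molecule of neural tissue that shares 4.98% of its exon bases with Ackr1, was at 0.0605 to 1.76 CPM in B16F10 with a median of 0.811 CPM, against 0.535, 0.121, 0.682, 0.0564 and 0.105 CPM in B16F0.

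The mural and melanocytic scores were not among the values that chose the members. Their marker lists were drawn up with earlier results of these data known. Slopes, calls and adjusted p-values on them are therefore descriptions too. The melanocytic slopes are also not separate from the endothelial score: several given below changed when both were in the fit. Over the 12 libraries the mural score had r = 0.83 and the melanocytic score r = -0.83 with the sensory receptor reads. Those reads were not in the model, and their part in the slopes was not tested. On the mural score 0 of 9 members followed, against 4.52% of genes. Chl1 had the steepest slope, 1.32 ± 0.35 (limma, adjusted p = 0.0546), and it passed without B16F10 replicate 4 (limma, adjusted p = 0.0268). Cadm1 fell, with a slope of -0.92 ± 0.20 (limma, adjusted p = 0.0360), where 1.01% of genes fell, a call that was lost without any 1 of 9 of the 12 libraries, all but B16F10 replicates 4 and 5 and B16F0 replicate 2 (adjusted p 0.0564 to 0.249). On the melanocytic score, which averaged 8.46 ± 0.26 in B16F10 and 8.80 ± 0.25 in B16F0, Nrcam followed with a slope of 1.17 ± 0.33 (limma, adjusted p = 0.0270), 1 of 9 members against 13.8% of genes. That call was lost without B16F10 replicate 3 (adjusted p = 0.169) or B16F0 replicate 3 (0.0822) and with the endothelial score in the fit (slope 0.50, adjusted p = 0.368). Cadm1 had a steeper slope, 1.35 ± 0.54 (limma, adjusted p = 0.0808), and it passed without B16F10 replicate 4 (0.0401). Mcam and Bcam had slopes of -1.70 ± 0.61 and -2.06 ± 0.86 (limma, adjusted p = 0.0599 and 0.0932), and 0.09 and 0.02 with the endothelial score in the fit. Both fell past the threshold without B16F10 replicate 5 (limma, adjusted p = 0.0227 and 0.0138), and Mcam also without B16F0 replicate 5 (0.0398).

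**Figure D4:**
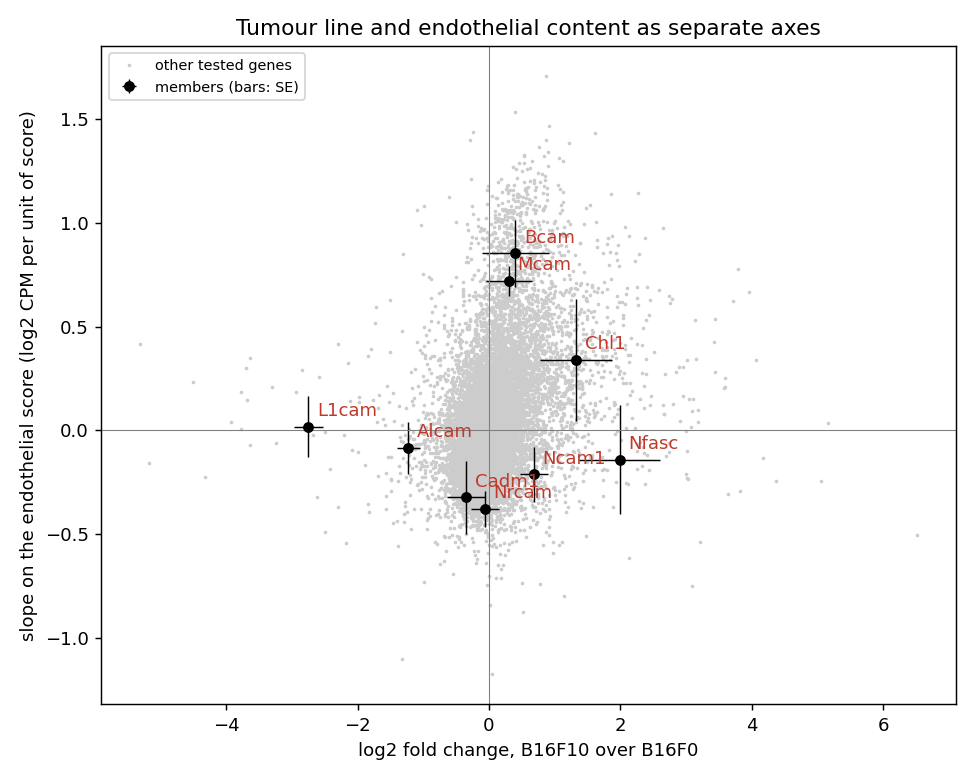
Log2 fold change between the lines (horizontal axis, B16F10 over B16F0) against the slope on the endothelial score (vertical axis) for 13534 tested genes in grey and the 9 tested members in black, with bars for the SE. L1cam and Alcam lie far to the left at a slope near 0, Mcam and Bcam lie high near a fold change of 0, and Nrcam lies low.

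The genes whose log2 CPM was most like that of each member were sought among 10136 tested genes that averaged 5 CPM or more, by Pearson's r over the 12 libraries. L1cam was most like Abcc2, an organic anion export pump (r = 0.977, 2.79 CPM in B16F10 and 54.6 CPM in B16F0), then Rab5b (0.968) and Wipf3 (0.961). Alcam was most like Ints6 (0.947), Slc25a34 (0.946) and Edil3 (0.944). Mcam was most like Stab1, a scavenger receptor of sinusoidal endothelium and macrophages (0.992), then Klhl6 (0.984) and the endothelial lectin Clec14a (0.981). Bcam was most like Slc9a3r2 (0.968), Pkn3 (0.967) and Pparg (0.965), Nrcam like Pms1 (0.938), the neural cadherin Cdh2 (0.929) and Asnsd1 (0.918), Cadm1 like Hint1 (0.959), Lclat1 (0.954) and Sulf2 (0.952), and Ncam1 like Tbc1d17 (0.864), Pstpip1 (0.847) and Slc2a5 (0.834).

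Around the members, 4 lists of partner genes were followed in the same edgeR fit with Benjamini-Hochberg adjustment. These lists were also drawn up with earlier results of these data known. Their calls and adjusted p-values are therefore descriptions, like those of the members. Their median log2 fold changes were -0.01 for cytoplasmic partners, 0.15 for extracellular partners, -0.07 for shedding and glycan enzymes and 0.22 for other immunoglobulin adhesion genes, beside 0.019 for all genes tested. Of the 23 cytoplasmic partners (ankyrins, spectrins, ezrin proteins and adaptors) 0 passed in either direction, where 1.3% of all genes tested were higher and 1.47% lower. At an unadjusted p under 0.05, 1 was higher and 4 were lower, beside 965 and 1043 of all 13534 genes. Nearest to the threshold was Dpysl2, a microtubule regulator of growing axons, at 154 ± 39.6 CPM in B16F10 and 229 ± 59.7 CPM in B16F0 (edgeR, adjusted p = 0.0521 over all genes). Mpp3, a scaffold protein, was the 1 gene of this list that followed the endothelial score (slope 0.65 ± 0.15), where 3.71% of all genes did.

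Of the 28 extracellular partners 21 were tested, 2 were higher and 0 lower, against 1.3% and 1.47% of all genes tested. Cntn1, a lipid-anchored contactin that binds L1 family members, was at 4.37 ± 1.17 CPM in B16F10 and 0.847 ± 0.220 CPM in B16F0 (log2 fold change 2.26 ± 0.28, edgeR adjusted p = 0.000772), higher in every B16F10 library. Lgals3, a galectin that binds glycans of Mcam among others, was at 49.4 ± 15.4 CPM in B16F10 and 20.8 ± 6.25 CPM in B16F0 (1.27 ± 0.25, edgeR adjusted p = 0.0168). The call for Lgals3 was lost without any 1 of B16F0 replicates 1, 4 and 5 (adjusted p 0.0705 to 0.0809) and without the libraries rich in Rn45s (0.0863). The genes Fgfr1, Nrp1, Lamb1, Lamc1 and Itgb3 of this list followed the endothelial score past the threshold given above. Their slopes were 0.81 ± 0.13, 0.61 ± 0.09, 0.86 ± 0.10, 0.59 ± 0.11 and 0.57 ± 0.11. Of all genes tested 3.71% followed.

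Of 15 shedding and glycan enzymes 11 were tested, 0 were higher and 3 lower, against 1.3% and 1.47% of all genes tested. Chst10, which makes the HNK-1 sulfate on Ncam1 and L1 family glycans, was at 1.66 ± 0.58 CPM in B16F10 and 4.17 ± 0.86 CPM in B16F0 (-1.46 ± 0.28, edgeR adjusted p = 0.0132). Bace2, a membrane aspartyl protease, was at 142 ± 29.1 CPM in B16F10 and 261 ± 53.7 CPM in B16F0 (-0.88 ± 0.19, edgeR adjusted p = 0.0272). Adam10, which releases the ectodomain of L1cam, was at 274 ± 61.6 CPM in B16F10 and 448 ± 34.2 CPM in B16F0 (-0.72 ± 0.16, edgeR adjusted p = 0.0341). All B16F10 libraries were below all B16F0 libraries for these 3 of the 11, against 1.46% of all genes tested. The call for Chst10 was lost without B16F0 replicate 5 (adjusted p = 0.0580). Those for Bace2 and Adam10 were lost without B16F10 replicates 1 or 2 or B16F0 replicates 1, 4 or 5, that for Bace2 also without B16F0 replicate 2, and that for Adam10 also without B16F10 replicates 4, 5, 6 or 7 (adjusted p 0.0549 to 0.114 for Bace2 and 0.0509 to 0.146 for Adam10). Both were lost as well with library size scaling (adjusted p = 0.0529 for Bace2 and 0.0967 for Adam10) and when both Rn45s-rich libraries were left out (0.0799 and 0.0872), and Adam10 with no batch term (0.0664), with the melanocytic score in the fit (0.0770) and when the 3 endothelial-rich libraries were left out (0.0586). Adam17 and Bace1, the related proteases, had log2 fold changes of 0.11 ± 0.16 and -0.07 ± 0.12. St8sia4, which makes the polysialic acid of Ncam1, was the 1 enzyme that followed the endothelial score, with a slope of 0.92 ± 0.10, where 3.71% of all genes did.

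Of 48 other immunoglobulin adhesion genes 35 were tested, 1 was higher and 1 lower, against 1.3% and 1.47% of all genes tested. Cxadr, a junction molecule that serves as the receptor of coxsackieviruses and adenoviruses, was at 14.3 ± 4.47 CPM in B16F10 and 2.26 ± 1.18 CPM in B16F0 (2.69 ± 0.32, edgeR adjusted p = 0.000596). Sdk1, a homophilic molecule of synapses, was at 16.3 ± 3.99 CPM in B16F10 and 38.9 ± 20.6 CPM in B16F0 (-1.22 ± 0.23, edgeR adjusted p = 0.0115), with overlap, and the call was lost without B16F0 replicate 1 (adjusted p = 0.0651) or 4 (0.0510). Those that followed the endothelial score were Cd200, Unc5b, Ptk7, F11r, Icam2 and Icam1, with slopes from 0.80 for Icam2 to 1.26 for Ptk7. Of all genes tested 3.71% followed.

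**Figure D5:**
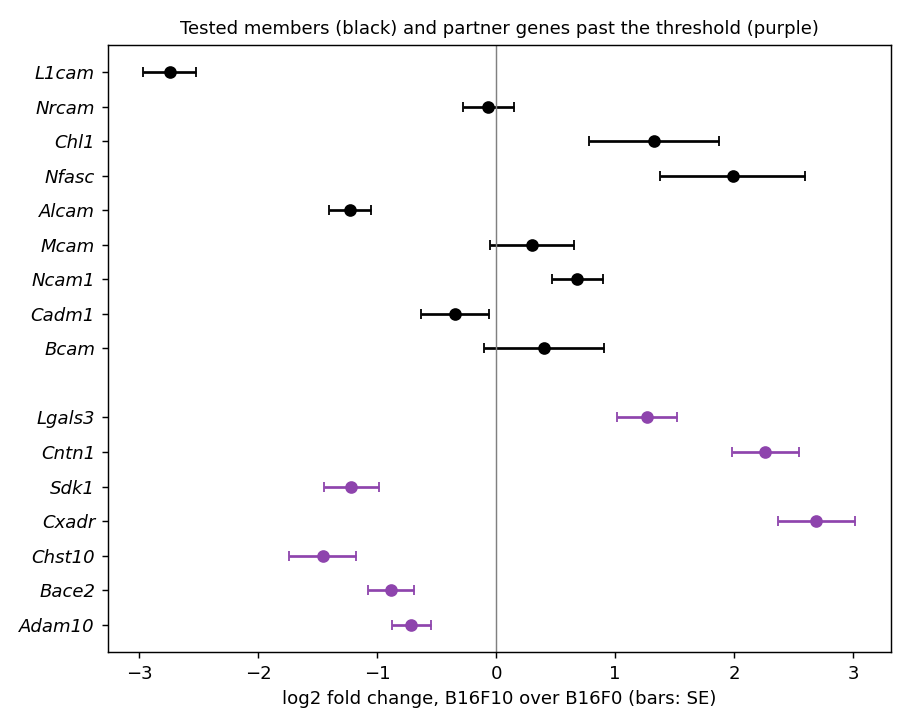
Log2 fold change (B16F10 over B16F0, bars are the SE) of the 9 tested members in black and of the 7 partner genes past the false discovery rate of 0.05 in purple. L1cam at -2.75 and Cxadr at 2.69 lie at opposite ends, and among the members Chl1 and Nfasc have the widest bars.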

How the data were processed

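ScriptSeq libraries of ribosome-bound mRNA were made from tumours, 7 of B16F10 and 5 of B16F0, per the labels. For each gene the authors deposited raw counts of reads as whole numbers. Per the submitters' processing notes, the build was mm10 and the tools were featureCounts 1.6.0, STAR 2.2.1, cutadapt 1.16, R 3.3.2 and edgeR. The annotation and strand setting of the counting are each not given in the sources used here. The deposited normalized table and comparison table were not used.

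The members and all lists were chosen with earlier results of these data known. Genes passing filterByExpr (minimum count 10, 13534 of 24421, 1069 without a count) entered the quasi-likelihood F test of edgeR 4.0.16 (R 4.3.3) after TMM scaling. Lane number was a factor, with Benjamini-Hochberg adjustment at 0.05. An SE is the log2 fold change over the root of its F value. Slopes on scores were fitted with limma 3.58.1 on log2 CPM (prior count 2), with lane and line in the model. Scores were compared by exact permutation over 792 splits, which can reach p = 0.00126. Totals of 5322510 to 20569186 counts limit scarce genes most. No libraries agreed within sampling noise (chi-square per degree of freedom at least 7.07). Exon lengths come from GENCODE on GRCm38. Alternatives covered scaling, filter, batch term, covariates, DESeq2 1.42.0, limma-voom and left-out libraries. The methods were tested on simulated data. Named were the members, up to 4 called genes of each partner list by smallest p, the 3 genes most like each member with at least 5 CPM, and set markers. Dpysl2, Adam17, Bace1 and the partner genes following the endothelial score were named outside that rule, after their values were seen.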

Additional observations from a re-analysis of the deposited data

How the results depend on the processing

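Under 28 alternatives the log2 fold change of L1cam was -3.04 to -2.52 and that of Alcam -1.37 to -1.03, a description, since both were chosen on this contrast. Of 244 refits of the members' fold changes, 222 kept direction and call, 20 reversed and 2 passed anew (Nfasc with DESeq2, 2.02, and Ncam1 without B16F0 replicate 5, 0.94). All members were chosen on this contrast, so these counts too are a description, and the cause of the changes was not tested.

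The count of genes higher was 176 and lower 199. It was 131 lower without a batch term, 325 and 305 with the library name prefix, 373 and 330 with the melanocytic score, 132 lower with library size scaling, 407 and 445 with DESeq2, 333 and 336 with limma-voom, 96 and 81 without lane 2, 111 and 125 leaving out both Rn45s-rich libraries, and 104 to 199 higher and 99 to 247 lower without single libraries. With the replicate block 30 were higher and 28 lower, and 0 genes followed and 0 fell with the endothelial score. The replicate numbers pair no samples (correlations of deviations -0.29 to 0.32 over 5 numbers, 4 of them negative). The closest B16F10 library was replicate 3 for B16F0 replicate 2 (r = 0.74) and replicate 4 for B16F0 replicate 3 (r = 0.55), each with the same name prefix. For B16F0 replicate 1 it was replicate 3 (r = 0.67), of another prefix. For B16F0 replicates 4 and 5 it was replicate 7 (r = 0.53 and 0.43), all without a prefix. The calls for Lgals3, Sdk1, Chst10, Bace2 and Adam10 were lost under the block.

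Genes following the endothelial score numbered 502 and falling 24. Falling were 6 with tumour line only, 43 with library size scaling, 4 with Cdh5 as the score and 362 without the libraries rich in Rn45s. Without the 3 libraries of highest score 0 followed and 0 fell. Without single libraries 293 to 788 followed and 3 to 253 fell. Genes following the mural score numbered 612, and 0 to 1695 without single libraries. Those following the melanocytic score numbered 1873, and 831 with the endothelial score added and 394 to 1990 without single libraries.

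Fold changes that reversed were these. Nrcam had 0.025 with the prefix, 0.30 with the melanocytic score, 0.056 with limma-voom, 0.051 without lane 2, 0.036 without the highest endothelial libraries and -0.22 to 0.039 without single libraries. Cadm1 had 0.042, 0.12, 0.089 and 0.051 under the first 4 of these and -0.47 to 0.037 without single libraries. Mcam had -0.33 with the melanocytic score and -0.085 without the libraries rich in Rn45s. Bcam had -0.49 and -0.093 under these, -0.12 with limma-voom, -0.19 without the highest endothelial libraries and -0.087 to 0.70 without single libraries.

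Slopes on the endothelial score reversed for L1cam with the block (-0.11), library size scaling (-0.036), Cdh5 as the score (-0.0023), the mural score added (-0.042) and without the libraries rich in Rn45s (-0.16). Without the highest endothelial libraries they were -1.97 for Chl1, 0.86 for Alcam, 0.19 for Cadm1 and -0.17 for Bcam. Without single libraries they were -0.15 to 0.11 for L1cam, -0.29 to 0.090 for Nfasc and -0.16 to 0.070 for Alcam. On the mural score Ncam1 had 0.020 with the endothelial score added and -0.22 to 0.070 without single libraries, and Nfasc -0.66 to 1.17. On the melanocytic score Mcam had 0.094 and Bcam 0.021 with the endothelial score added, and without single libraries L1cam had -0.45 to 0.43 and Nfasc -1.36 to 0.22.

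Single libraries could be left out for Nfasc in 7 of 12 cases, since in the others it did not pass the filter on low counts. Depth limits Chl1, Nfasc and Cadm3, with 293, 144 and 68 reads in all. Lane 2 holds 1 B16F0 library and the B16F10 libraries with the most sensory receptor reads, and calls for Lgals3, Sdk1, Chst10, Bace2 and Adam10 were lost without it.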
